A study of Mus musculus with 16 samples.

Results

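Cebpa and Cebpg are neighbouring genes on mouse chromosome 7, transcribed away from each other from start sites 62.8 kb apart. In the mm9 build, Cebpa (ENSMUSG00000034957.9) lies on the plus strand at chr7:35904312-35906945 and Cebpg (ENSMUSG00000056216.8) on the minus strand at chr7:35831441-35841522. These 2 genes, of 22368 examined over the genome, were taken by name together with 100 kb on either side, which gives one window at chr7:35731441-36006945 of 275.5 kb. The window holds 126 of the 479799 islands in 16 ChIP-seq lists, an island being a stretch of enriched sequence called in 1 library. It also takes in the 3′ part of Pepd, which encodes the dipeptidase prolidase, the amino acid transporter gene Slc7a10 and the lipoprotein receptor gene Lrp3. Distances below are in kb from the Cebpa start site, negative towards Cebpg.

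C/EBP proteins are basic leucine zipper factors that bind DNA as dimers. In the adipocyte programme C/EBPβ and C/EBPδ appear first after hormonal induction, and C/EBPα and PPARγ follow and maintain each other's expression in the fat cell. C/EBPγ is a widely expressed family member that lacks a conventional activation domain and pairs with other family members. H3K27ac, acetylation of lysine 27 of histone H3, marks active enhancers and promoters, and H3K4me1, monomethylation of lysine 4, marks enhancers whether active or only primed.

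The libraries come from 3T3-L1, a mouse fibroblast line of the fat lineage that forms adipocytes after hormonal induction. H3K27ac was profiled in cells carrying an empty retrovirus and in cells carrying retroviral V5-tagged SETD5, a SET domain protein, at 0 h and 48 h of differentiation (Day 0 and Day 2 in the labels), with 2 libraries, A and B, per condition. SETD5-V5 itself was profiled through its tag at 0 h and 6 h, again with libraries A and B, and H3K4me1 (0 h and 48 h) and endogenous SETD5 (0 h and 6 h, antibody IgG-F2104) with 1 library each. The question was which enhancers are activated in early adipogenesis and which of them added SETD5 holds back. The SETD5 transgene is driven by a weak LTR promoter in stably transduced cells. The study obtained 2 such lines, with moderate and high Setd5 mRNA, and used the moderate one except where it says otherwise. The sample labels name the SETD-V5 virus for both H3K4me1 libraries, whereas the study's figures show that mark in untransduced cells, so the vector of that comparison is uncertain. For SETD5-V5 the same field is blank in replicate A and names the virus in replicate B.

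The lists held 31292 to 39949 islands for H3K27ac, 49926 and 50276 for H3K4me1, 6666 and 16054 for SETD5-V5 at 0 h, 27220 and 35573 for SETD5-V5 at 6 h, and 2132 and 3293 for endogenous SETD5. No 2 lists were identical. Promoter H3K27ac in both replicates was present at 6 of 6 fibroblast and preadipocyte genes at 0 h and at 5 at 48 h, with either vector. It was present at 0 of 5 genes of other lineages (blood, endothelium, epithelium, muscle, liver). For scale, 10075 (A) and 9787 (B) of 22368 protein-coding promoters had an island with the empty vector at 0 h. Of 5 adipocyte genes, 1 carried it at 0 h and 4 at 48 h with the empty vector, and 1 and 3 with SETD5. The lists report no read counts, so the depth behind an island is unknown, and absence from a list says only that a stretch was below the threshold of the caller. With 2 libraries against 2, the smallest two-sided p of the exact permutation test is 0.333, so no comparison at the locus can pass 0.05.

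The sequences that the results turn on are shown first, taken from the mm9 assembly. The first is centred on the assay site 8 kb downstream of Cebpa and lies within the only stretch of the Cebpa side that both SETD5-V5 lists at 6 h share. Capitals mark the letters TTGCNNAA, a C/EBP consensus, or TTNNGCAA on the other strand, at chr7:35912016-35912315 (plus strand).
Cebpa +8 kb: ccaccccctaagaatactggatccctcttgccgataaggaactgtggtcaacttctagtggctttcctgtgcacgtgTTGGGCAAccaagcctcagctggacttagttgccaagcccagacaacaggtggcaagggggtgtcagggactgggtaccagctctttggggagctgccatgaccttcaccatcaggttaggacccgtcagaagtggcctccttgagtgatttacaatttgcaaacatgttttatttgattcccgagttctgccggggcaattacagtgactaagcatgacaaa
At the site 19 kb downstream, which carried H3K27ac in every H3K27ac list, the capitals mark the AP-1 consensus TGACTCA, at chr7:35923424-35923535 (plus strand).
Cebpa +19 kb: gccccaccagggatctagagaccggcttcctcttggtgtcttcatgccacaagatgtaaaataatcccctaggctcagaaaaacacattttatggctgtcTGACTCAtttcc
At the site named +35 kb, acetylated at 48 h alone, neither consensus was found in the amplified stretch, at chr7:35942603-35942666 (plus strand).
Cebpa +35 kb: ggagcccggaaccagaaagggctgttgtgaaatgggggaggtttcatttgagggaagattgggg
The last pair are the 200 bp before the start sites, printed because the 2 promoters differed in SETD5-V5 and in what added SETD5 left of their islands. Capitals mark TATAAA at Cebpa, chr7:35904112-35904311 (plus strand), and CCAAT, here read as ATTGG, at Cebpg, chr7:35841523-35841722 (minus strand).
Cebpa promoter: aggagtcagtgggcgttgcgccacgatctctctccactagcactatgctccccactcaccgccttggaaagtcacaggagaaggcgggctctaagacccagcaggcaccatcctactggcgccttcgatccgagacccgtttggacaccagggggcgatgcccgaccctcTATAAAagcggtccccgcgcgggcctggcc
Cebpg promoter: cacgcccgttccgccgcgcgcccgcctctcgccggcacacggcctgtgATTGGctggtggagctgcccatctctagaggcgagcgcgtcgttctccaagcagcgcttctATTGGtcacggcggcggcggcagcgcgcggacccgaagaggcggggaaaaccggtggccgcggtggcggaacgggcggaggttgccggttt

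Matches were read on both strands and do not overlap one another. They describe letters and not bound sites. The C/EBP consensus occurs in 14.4% and 14.5% of 300 bp stretches at the centres of the SETD5-V5 islands at 6 h (A and B), and the AP-1 consensus in 8.22% and 8.17%. The AP-1 match at +19 kb lies in 112 bp outside any SETD5-V5 island, so these shares are no base rate for it. In the 200 bp before the start sites of 22367 protein-coding genes, TATAAA occurs in 10.1% and CCAAT in 30.6%. Cebpg had 2 CCAAT letters and no TATAAA, and Cebpa had 1 TATAAA and no CCAAT. Neither promoter held the C/EBP or the AP-1 consensus in those 200 bp, as is usual, since 7.2% and 3.11% of the 22367 genes had them there. The Cebpg stretch had the higher share of G and C, 71.5% against 63.5%.

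**Figure D1:**
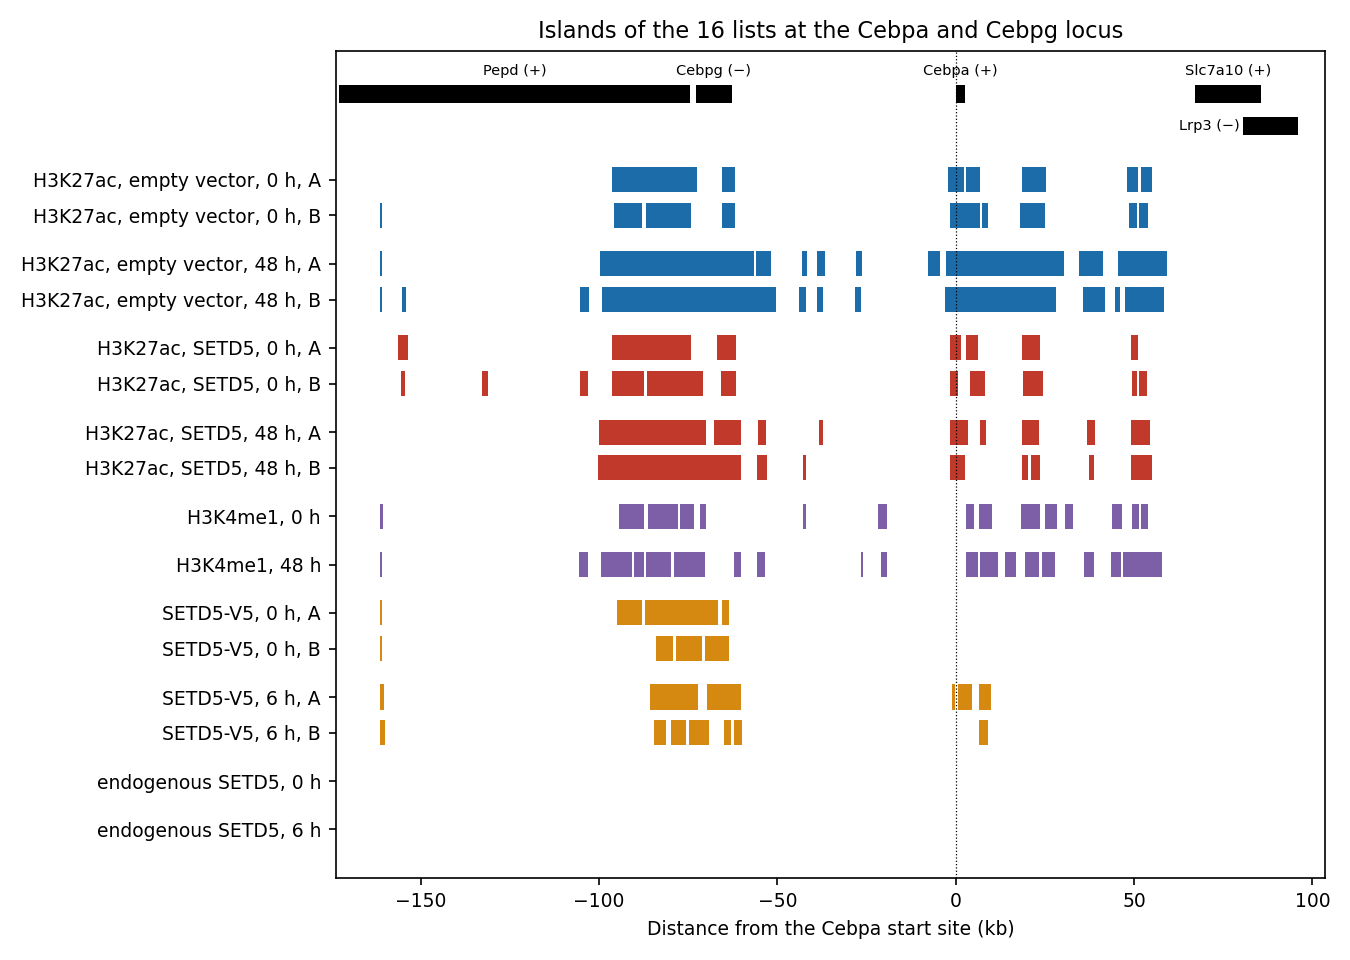
Islands of all 16 lists across the window, in kb from the Cebpa start site, with 1 track per library (A and B are replicates) and protein-coding genes as black bars with their strand. The empty-vector tracks at 48 h hold one island from the Cebpa promoter to 30.3 kb (A) and 28.1 kb (B), which the SETD5 tracks lack, while the SETD5-V5 tracks at 0 h stop at the Cebpg gene.

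The first comparison asked how the acetylated part of the locus differed between 0 h and 48 h in empty-vector cells. H3K27ac islands covered more of the window at 48 h in both replicates, and the sequence added lay mainly around and downstream of Cebpa, across the space between the genes and over the body of Cebpg. In covered length, islands being clipped at the window's edges, the 0 h libraries reached 49.0 kb (A, 7 islands) and 46.6 kb (B, 9 islands). The 48 h libraries reached 109.8 kb (A, 10 islands) and 107.6 kb (B, 11 islands). The groups did not overlap, with means of 47.8 kb ± 1.7 and 108.7 kb ± 1.56 (SD, n = 2). The difference was 60.9 kb ± 1.63 (SE), a ratio of 2.27 (two-sided exact permutation p = 0.333). Among 6641 tiles of the genome of the window's length that hold H3K27ac in any list, both 48 h libraries lay above both 0 h libraries in 32.5%, so the separation alone is common, whereas 41 tiles (0.617%) had a larger mean difference. In number, the islands were 10.5 on average at 48 h and 8.0 at 0 h.

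The 5 segments of the window contributed unequally. The 100 kb beyond the 3′ end of Cebpa, which up to Slc7a10 hold no protein-coding gene, had 17.0 kb and 17.7 kb covered at 0 h (A and B) and 48.3 kb and 44.1 kb at 48 h. The 62.8 kb between the start sites had 3.2 kb and 2.6 kb at 0 h and 21.6 kb and 20.4 kb at 48 h. The body of Cebpg, 10.1 kb long, was covered over 3.1 kb and 2.7 kb at 0 h and from end to end in both libraries at 48 h. The body of Cebpa, only 2.6 kb long, was already covered over 2.3 kb and 2.6 kb at 0 h. On the far side of Cebpg, mostly within Pepd, the values were 23.4 kb and 21.0 kb at 0 h against 27.2 kb and 30.4 kb at 48 h. The mean differences were thus 28.85 kb ± 2.13 (SE) beyond Cebpa, 18.1 kb ± 0.671 between the genes, 7.2 kb ± 0.2 in Cebpg, 6.6 kb ± 2.0 on the Pepd side and 0.15 kb ± 0.15 in Cebpa. In Cebpa the libraries of both times overlapped, and in the other 4 segments they did not (n = 2, exact permutation p = 0.333 each). How often stretches of these lengths separate elsewhere in the genome was not tested, for this or the later comparisons of segments.

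Island by island, the 0 h map had 3 acetylated blocks downstream of Cebpa besides its promoter island. In replicate A the promoter island ran from -2.3 to 2.3 kb and the others from 2.9 to 6.9, 18.5 to 25.3, 48.1 to 51.1 and 51.9 to 55.1 kb. In replicate B the first 2 were joined from -1.7 to 6.7 kb, followed by islands from 7.3 to 8.9, 17.9 to 25.1, 48.5 to 50.9 and 51.5 to 53.9 kb. Islands at the +19 kb and +53 kb sites were thus listed before differentiation with the empty vector. The study describes the +8 kb, +19 kb and +53 kb regions as lacking this mark at 0 h. It read this from browser tracks, beside a ChIP-qPCR time course of Cebpa and Pparg enhancers with low levels early and higher ones at 48 h. A called island is a different measure from the level of signal judged there. At +53 kb the islands ranked low, outscored by 89.7% (A) and 77.6% (B) of islands in their lists. At +19 kb the shares were 17.3% and 16.7%. At 48 h the promoter island and the blocks as far as the +19 kb site lay in one island from -2.7 to 30.3 kb (A) or -2.9 to 28.1 kb (B). Further islands, the last of them over the +53 kb site, ran from 34.5 to 41.3 and 45.5 to 59.3 kb in A. In B they ran from 35.7 to 41.9, 44.5 to 45.9 and 47.3 to 58.3 kb. No H3K27ac island was listed beyond 59.3 kb in any of the 8 lists, so the promoters of Slc7a10 and Lrp3 stayed outside.

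On the Cebpg side, the 0 h lists held an acetylated block inside Pepd and a separate promoter island of Cebpg. The block ran from -96.3 to -72.5 kb in A and was split at -88.1 kb in B, where its 2 pieces spanned -95.9 to -88.1 and -86.9 to -74.1 kb. The Cebpg promoter island ran from -65.5 to -61.9 kb in both replicates. By 48 h block and promoter lay in a single island of 43.0 kb (A, -99.7 to -56.7 kb) or 48.8 kb (B, -99.3 to -50.5 kb). Smaller islands between the genes were found at 48 h alone. In A they ran from -56.1 to -51.7, -43.1 to -41.7, -38.9 to -36.7, -27.9 to -26.3 and -7.7 to -4.5 kb, and in B from -43.9 to -41.9, -38.9 to -37.3 and -28.3 to -26.7 kb. The island that began at -38.9 kb in both replicates overlaps the annotated microRNA gene AC149058.1. Further into Pepd, B had islands from -155.3 to -154.1 and -105.3 to -102.9 kb at 48 h.

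**Figure D2:**
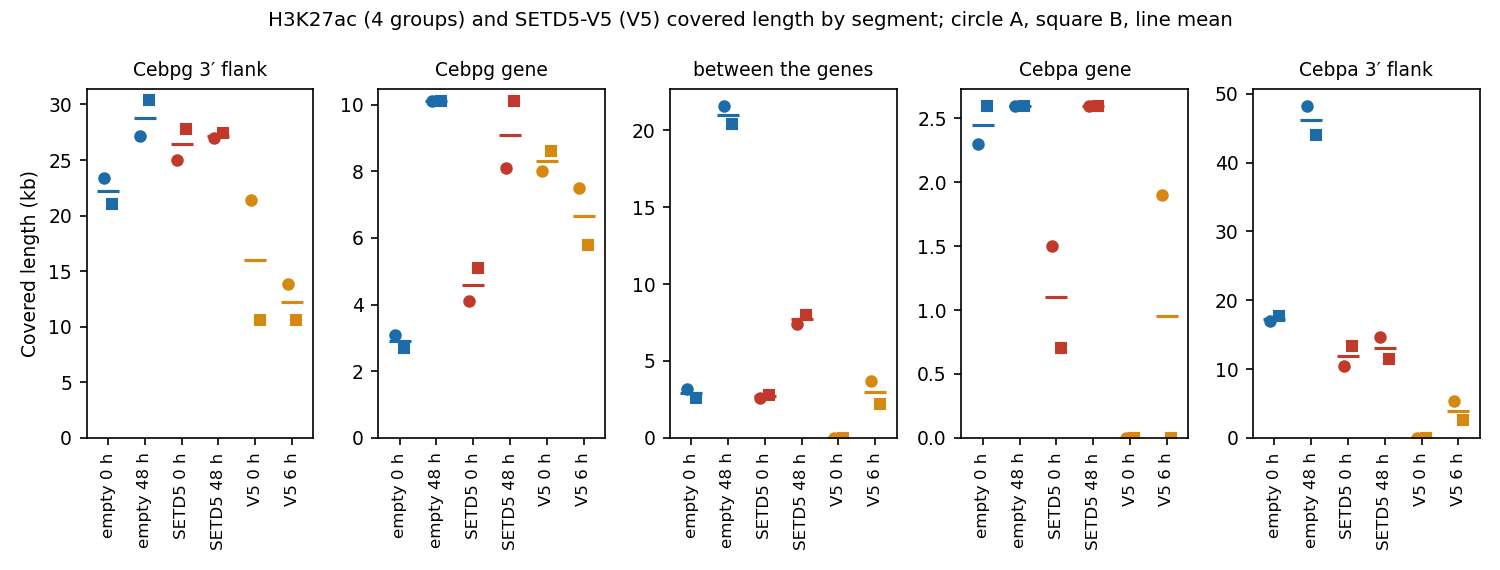
Covered length in kb (y axis) in each of the 5 segments of the window, for the 4 groups of H3K27ac libraries and for SETD5-V5 (V5), with circles for replicate A, squares for replicate B and lines for the mean. Beyond the 3′ end of Cebpa and between the genes the empty-vector 48 h libraries stand above all others, while in the Cebpg gene the SETD5 48 h libraries reach 8.1 and 10.1 kb.

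The second comparison asked what of the 48 h pattern was present in cells with added SETD5. At 48 h, SETD5 cells had less acetylated sequence in the window than empty-vector cells in both replicates, and the shortfall lay downstream of Cebpa and between the genes. Cebpg and the Pepd side were covered to nearly the same extent in both kinds of cell. SETD5 libraries at 48 h reached 59.8 kb (A, 9 islands) and 59.6 kb (B, 8 islands), against the 109.8 kb and 107.6 kb of empty-vector cells. The groups did not overlap and the mean difference was -49.0 kb ± 1.1 (SE, n = 2), a ratio of 0.55 (two-sided exact permutation p = 0.333). Both SETD5 libraries lay below both empty-vector libraries in 26.4% of the tiles, and 16 of the 6641 tiles (0.241%) had a lower mean difference.

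By segment, the sequence beyond Cebpa had 14.7 kb and 11.5 kb covered with SETD5 at 48 h (A and B), a mean difference from empty vector of -33.1 kb ± 2.64 (SE) and a ratio of 0.28. Between the genes the values were 7.4 kb and 8.0 kb, a difference of -13.3 kb ± 0.671 and a ratio of 0.37. In both segments the libraries of the vectors stood apart (n = 2, exact permutation p = 0.333). The Cebpg gene had 8.1 kb and 10.1 kb with SETD5 and 10.1 kb in both empty-vector libraries, a difference of -1.0 kb ± 1.0, and the Pepd side 27 kb and 27.4 kb, a difference of -1.6 kb ± 1.61. The body of Cebpa was fully covered in all 4 libraries. In the last 3 segments the groups overlapped or were equal, so that a difference was not detectable with 2 libraries each.

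In the SETD5 lists at 48 h the Cebpa promoter island stayed short and the sequence downstream stayed in pieces. In replicate A islands ran from -1.5 to 3.3, 6.9 to 8.5, 18.7 to 23.3, 36.7 to 39.1 and 49.1 to 54.5 kb. In B they ran from -1.5 to 2.7, 18.5 to 20.3, 21.1 to 23.5, 37.3 to 38.7 and 49.1 to 54.9 kb. Between the genes a block was listed in both (-55.5 to -53.1 kb in A, -55.7 to -52.9 kb in B), and 1 small island of 1.0 kb per library from -38.3 to -37.3 kb (A) or -42.9 to -41.9 kb (B). The Cebpg side differed between the replicates mainly in a break. In A islands of 30.0 kb (-99.9 to -69.9 kb) and 7.6 kb (-67.9 to -60.3 kb) left a gap of 2.0 kb inside Cebpg, and in B there was 1 island of 40.2 kb (-100.3 to -60.1 kb).

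The third comparison was of SETD5 cells at 48 h and 0 h. At 0 h the SETD5 libraries had 43.6 kb (A, 7 islands) and 49.8 kb (B, 11 islands). The mean difference at 48 h was 13.0 kb ± 3.1 (SE, n = 2), a ratio of 1.28, without overlap of the groups (exact permutation p = 0.333), as in 29.8% of the tiles. In number the islands were no more at 48 h, with means of 8.5 against 9.0. The difference in covered length lay mainly between the genes, with 2.6 kb and 2.8 kb at 0 h against 7.4 kb and 8.0 kb, and in Cebpg. There the values were 4.1 kb and 5.1 kb against 8.1 kb and 10.1 kb. The body of Cebpa had 1.5 kb and 0.7 kb at 0 h and was fully covered at 48 h. Its difference was 1.5 kb ± 0.4 (SE), without overlap of the libraries. Beyond Cebpa the SETD5 libraries at the 2 times overlapped, with 10.4 kb and 13.4 kb at 0 h against 14.7 kb and 11.5 kb at 48 h, a difference of 1.2 kb ± 2.19. Their 0 h islands there ran from -1.5 to 1.5, 2.9 to 6.3, 18.5 to 23.5 and 49.1 to 51.1 kb in A. In B they ran from -1.7 to 0.7, 4.1 to 8.1, 18.9 to 24.5, 49.3 to 50.9 and 51.5 to 53.7 kb. On the Cebpg side the Pepd block ran from -96.3 to -74.1 kb in A and in 2 pieces from -96.5 to -70.9 kb in B, with Cebpg promoter islands from -66.9 to -61.7 kb (A) and -65.9 to -61.7 kb (B). Between -156.5 and -103.1 kb, inside Pepd, A had 1 further island and B had 3, of 1.2 to 2.8 kb.

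Before differentiation the vectors differed little over the window as a whole. SETD5 minus empty vector was -1.1 kb ± 3.32 at 0 h (SE, n = 2, exact permutation p = 1.0), with overlapping libraries (both SETD5 libraries lay below both empty-vector ones in 16.8% of tiles). The sign turned without SETD5 replicate A (2.0 kb) or empty-vector replicate A (0.1 kb), and not without either replicate B. Within the window 2 segments around Cebpa had lower values with SETD5 at 0 h and 2 around Cebpg had higher ones. Beyond Cebpa the difference was -5.45 kb ± 1.54 and in the Cebpa body -1.35 kb ± 0.427, where SETD5 libraries had 1.5 kb and 0.7 kb. In the Cebpg body it was 1.7 kb ± 0.539 and on the Pepd side 4.2 kb ± 1.84. All 4 came without overlap of the libraries (n = 2, exact permutation p = 0.333), for which no share over the genome was taken.

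The difference between the time courses was itself computed. From 0 h to 48 h the window's covered length differed by 60.8 kb (A) and 61.0 kb (B) with the empty vector and by 16.2 kb and 9.8 kb with SETD5. The SETD5 course was lower by a mean of -47.9 kb on this scale, and the 2 pairs of values stood apart (exact permutation p = 0.333, n = 2). No share over the genome was taken for this separation. Of this, -27.65 kb lay beyond Cebpa and -13.1 kb between the genes, compared with -2.7 kb in Cebpg and -5.8 kb on the Pepd side. The Cebpa gene alone had the opposite sign, 1.35 kb, from 1.1 and 1.9 kb with SETD5 against 0.3 and 0.0 kb with the empty vector. Its body is only 2.6 kb long and was fully covered at 48 h with either vector. Empty-vector libraries already covered 2.3 and 2.6 kb of it at 0 h (A and B), so their difference could be no larger. The sign thus comes from the lower SETD5 values at 0 h, 1.5 and 0.7 kb, with equal coverage at 48 h.

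**Figure D3:**
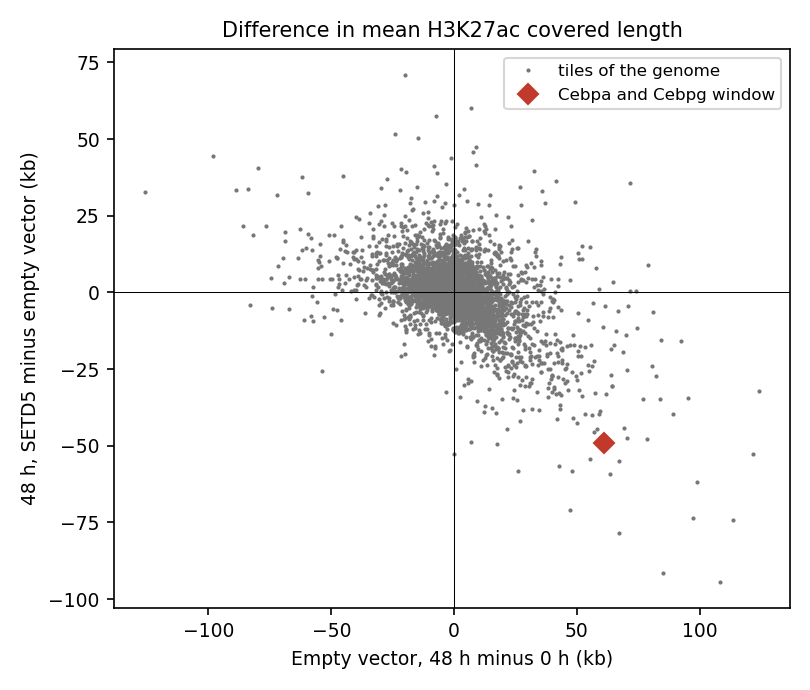
Mean H3K27ac covered length in 6641 tiles of the genome of the window's length (grey points), as the difference of 48 h minus 0 h with the empty vector (x axis, kb) against SETD5 minus empty vector at 48 h (y axis, kb), with the Cebpa and Cebpg window as a diamond. Both axes use the same empty-vector 48 h libraries, so a downward slope of the cloud is built in, and the window lies at 60.9 and -49.0 kb.

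To follow the same bases through the lists, the window was divided into steps of 200 bp. Sequence present in both empty-vector lists at 48 h amounted to 99.2 kb. Of it, 46.6 kb (47.0%) was in neither 0 h list and is called gained here, against 29.6% over the genome, and 43.0 kb was already in both 0 h lists. No sequence present in both 0 h lists of empty-vector cells was missing from both 48 h lists (0.0 kb of 43.0 kb), where the genome had 28.0% missing. Within each replicate, too, all acetylated sequence of 0 h was listed again at 48 h.

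The gained sequence of the Cebpa side and that of the Cebpg side differed in SETD5 cells. Over the window, 26.8 kb of the 46.6 kb gained (57.5%) was in neither SETD5 list at 48 h, against 30.8% over the genome, and 13.8 kb (29.6%) was in both, against 50.8%. Beyond the 3′ end of Cebpa 19.4 of 22.6 kb gained (85.8%) was absent with SETD5. In the Cebpg gene it was 0.0 of 7.0 kb and on the Pepd side 0.0 of 3.0 kb. Between the genes it was 7.4 of 14.0 kb (52.9%). Each of these classes uses both replicates of every condition, and steps of 1 locus are neighbours and not independent, so no test was made between segments.

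The absent sequence fell into 14 runs, all intergenic. The longest was 9.0 kb at chr7:35913201-35922200, which runs from 8.9 to 17.9 kb and lies between the +8 kb and +19 kb sites. Others were 3.4 kb long upstream of Cebpg (-60.1 to -56.7 kb), 3.2 kb at the far end of the acetylated region (55.1 to 58.3 kb) and 2.8 kb from 25.3 to 28.1 kb. The kept sequence fell into 7 runs, 5 of them on the Cebpg side, among them 2.6 kb and 2.4 kb inside Cebpg, 1.6 kb next to its promoter and 2.4 kb from -55.5 to -53.1 kb. On the Cebpa side the kept runs were 1.4 kb from 37.3 to 38.7 kb, which holds the +35 kb site, and 0.4 kb from 51.1 to 51.5 kb. Kept here means listed and not unaltered. At +35 kb the islands of 48 h were 6.8 and 6.2 kb long with empty vector and 2.4 and 1.4 kb with SETD5. The study counts +35 kb among the Cebpa enhancers repressed with SETD5 at 48 h.

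Sequence acetylated already at 0 h was not all retained either. Of the 43.0 kb present in all 4 empty-vector lists, 5.8 kb (13.5%) was in neither SETD5 list at 48 h, against 3.36% over the genome. Of this, 5.6 kb lay beyond Cebpa, where it made up 37.8% of 14.8 kb, and 0.2 kb between the genes. None lay in Cebpg or on the Pepd side. Within single replicates the shares were 16.7% against 15.1% over the genome in A and 21.0% against 8.68% in B. The excess over the genome was thus slight in A.

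**Figure D4:**
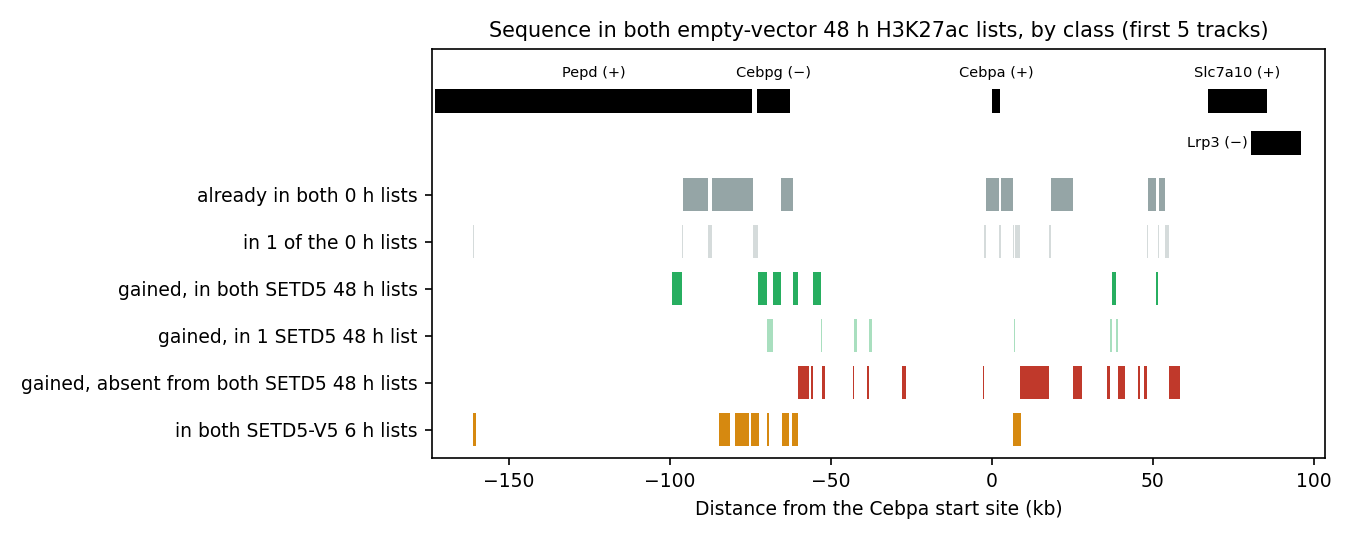
Sequence present in both empty-vector H3K27ac lists at 48 h, split by its presence at 0 h and in the SETD5 lists at 48 h, with the sequence shared by both SETD5-V5 lists at 6 h below, in kb from the Cebpa start site. Gained sequence absent with SETD5 covers 19.4 kb beyond Cebpa, kept sequence gathers at Cebpg, and on the Cebpa side the only shared SETD5-V5 stretch reaches the start of the longest absent run.

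The study assayed single sites of Cebpa, which were located here from their primers. The sites lie at chr7:35903429-35903518 (-0.8 kb, promoter), chr7:35905281-35905370 (+1 kb, Cebpa exon), chr7:35912109-35912223 (+8 kb), chr7:35923424-35923535 (+19 kb), chr7:35942603-35942666 (named +35 kb, centred 38.32 kb from the start site of the annotation) and chr7:35957152-35957169 (+53 kb, from the 1 primer that matched). The last 4 are intergenic. Of the 8 H3K27ac lists, 8 had an island at -0.8 kb, 7 at +1 kb, 5 at +8 kb, 8 at +19 kb, 4 at +35 kb and 7 at +53 kb. The +35 kb site was the one acetylated in all 4 lists of 48 h and in none of 0 h, with either vector.

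The rank of an island in its own list, by the score of the caller, separates sites that look alike by presence. At +8 kb the empty-vector island of replicate B at 0 h was among the weakest of its list, with 97.9% of islands scored higher, and so was that of SETD5 replicate A at 48 h (94.1%). The SETD5 island of replicate B at 0 h, 4.0 kb long, stood higher, outscored by 29.2%. In the empty-vector lists of 48 h the same site lay in the large promoter island, outscored by 0.601% (A) and 1.18% (B). At +53 kb the empty-vector islands of 0 h were outscored by 89.7% and 77.6% of islands, those of 48 h by 2.93% and 4.92%, and the SETD5 islands of 48 h by 27.5% and 29.1%. There SETD5 cells thus stood between 0 h and 48 h of empty-vector cells. At +35 kb the order was the same at 48 h, 25.0% and 25.8% with empty vector against 71.0% and 78.2% with SETD5. At +19 kb the islands of 0 h were outscored by 17.3% and 16.7% with empty vector and by 28.1% and 27.3% with SETD5. The SETD5 islands of 48 h there were outscored by 33.9% and 59.4%, and the empty-vector site then lay in the large promoter island. Scores of different libraries have no common scale, so ranks are given as a description.

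**Figure D5:**
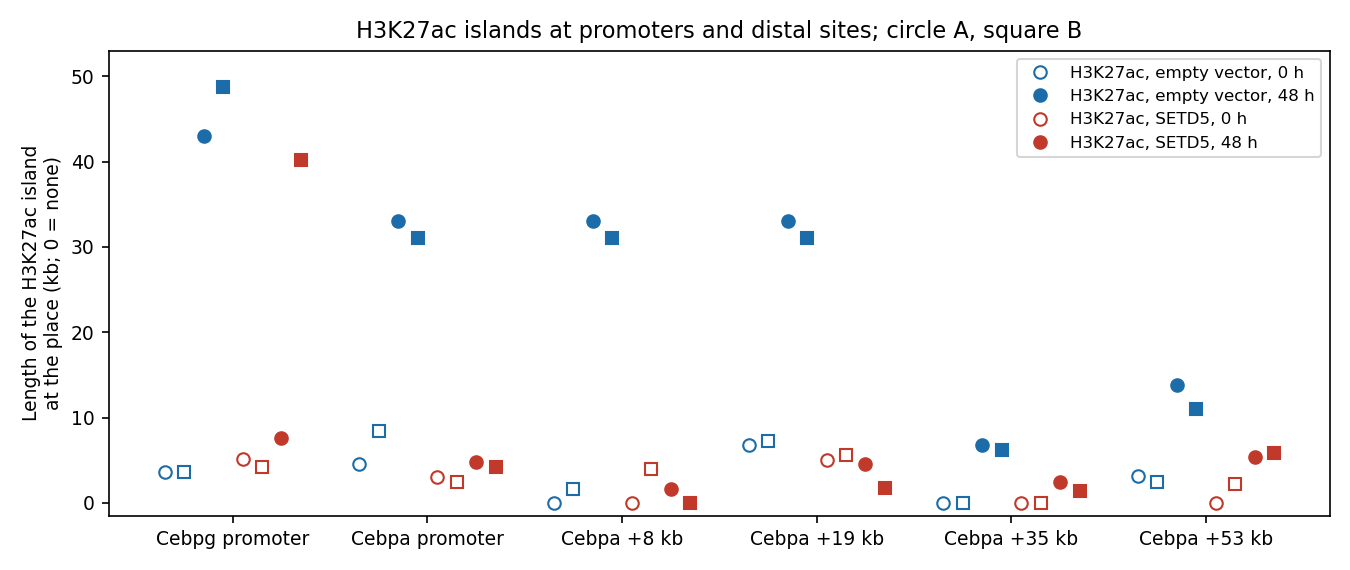
Length in kb of the H3K27ac island at 2 promoters and 4 distal sites (y axis, 0 where no island was listed), with open symbols for 0 h, filled for 48 h, blue for empty vector, red for SETD5, circles for replicate A and squares for B. Islands that span several places are drawn at each of them, so that the 33.0 and 31.0 kb islands of empty-vector cells at 48 h appear 3 times.

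At the promoters, taken from 1000 bp before to 100 bp after the start site, both genes had H3K27ac in all 8 lists, as had 39.6% of promoters. The Cebpa promoter island was 4.6 and 8.4 kb long at 0 h and 33.0 and 31.0 kb at 48 h with the empty vector (A and B). With SETD5 it was 3.0 and 2.4 kb at 0 h and 4.8 and 4.2 kb at 48 h. Of all promoters with an island, 0.53% and 0.46% had a longer one than Cebpa in empty-vector cells at 48 h, compared with 14.1% and 19.6% in SETD5 cells. Both SETD5 islands were thus longer at 48 h than at 0 h. Against the empty vector at 0 h, the SETD5 island of 48 h was longer in A (4.8 against 4.6 kb). In B it was shorter (4.2 against 8.4 kb), where the empty-vector island joined stretches that are separate in A.

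The Cebpg promoter island was 3.6 kb in both empty-vector libraries at 0 h and 43.0 and 48.8 kb at 48 h, longer than all but 0.193% and 0.0999% of promoter islands. With SETD5 it was 5.2 and 4.2 kb at 0 h and 7.6 and 40.2 kb at 48 h. The last 2 values differ through the break of 2.0 kb described above, and the covered length of the gene, 8.1 and 10.1 kb, differs less. In score the Cebpg promoter stood high in every H3K27ac list, outscored by 0.0607% to 3.22% of islands, whereas Cebpa ranged from 0.601% to 14.2%. Pepd, whose promoter lies outside the window at -206.9 kb, had promoter islands of 0.6 to 1.4 kb in all 8 lists. The promoters of Slc7a10 and Lrp3 had none in any of the 16 lists.

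The other genes of the family and Pparg, which encodes the nuclear receptor PPARγ, were read in the same way. Of 7 genes (Cebpa, Cebpb, Cebpd, Cebpe, Cebpg, Ddit3 and Pparg), 6 had a promoter island in every H3K27ac list and Cebpe had none. All 6 had a longer one in both empty-vector lists of 48 h than in both of 0 h, against 29.4% of the 9055 promoters with an island in those 4 lists. In 5 of the 6 both SETD5 islands of 48 h were shorter than both empty-vector ones, against 27.8% of the 9521 promoters with an island in all 4 lists of 48 h. Cebpb, which encodes the early factor C/EBPβ, had 15.2 and 14.6 kb at 0 h, 35 and 26.6 kb at 48 h, and 17.6 and 18.2 kb at 48 h with SETD5. Pparg had 14.2 and 9.4 kb, 18.4 and 18.8 kb, and 15.2 and 13.0 kb in the same order. Ddit3, which encodes the stress-induced factor CHOP, had 8.0 and 6.4, 10.2 and 8.8, and 8.6 and 6.6 kb. Cebpd, which encodes C/EBPδ and is annotated as a pseudogene in the annotation used, was the one gene with longer islands at 48 h and no shorter ones with SETD5. Its islands measured 6.8 and 6.2 kb with empty vector at 48 h and 7.2 kb in both SETD5 libraries. Cebpe is a gene of the myeloid lineage. With the empty vector, the ratio of promoter island length at 48 h to 0 h was thus higher at Cebpa and Cebpg than at the others. The Cebpg island of 48 h took in the Pepd block already listed at 0 h, and the covered length of the Cebpg gene had a ratio of 3.48. With SETD5, Cebpa had 3.0 and 2.4 kb at 0 h and 4.8 and 4.2 kb at 48 h. Pparg then had 7.6 and 9.8 kb and 15.2 and 13.0 kb, so in A its ratio was the higher one.

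SETD5-V5 was read at 0 h and 6 h. At 0 h its islands at the locus lay on the Pepd and Cebpg side alone, and at 6 h it was also listed at the Cebpg promoter and 8 kb downstream of Cebpa in both replicates. Between the genes, on Cebpa and beyond it, the 0 h libraries had 0.0 kb in both replicates. At 6 h they had 3.7 kb and 2.2 kb between the genes (A and B) and 5.3 kb and 2.6 kb beyond Cebpa. Over the window the libraries had 29.4 kb (A) and 19.2 kb (B) at 0 h and 32.2 kb and 21.2 kb at 6 h. The difference of 2.4 kb ± 7.5 (SE, n = 2) was smaller than the spread between replicates (exact permutation p = 0.667). It turned negative without 6 h replicate A (-3.1 kb) or 0 h replicate B (-2.7 kb). The window's share of all listed sequence was 0.0343% and 0.0544% at 0 h and lower, 0.0164% and 0.0143%, at 6 h, when the lists covered more of the genome (147.9 and 196.1 Mb against 35.3 and 85.6 Mb). Of 5848 tiles with a SETD5-V5 island, 80.3% had a larger difference than the window, and in 68.3% both 6 h libraries exceeded both 0 h libraries, which they did not here.

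The SETD5-V5 islands of 0 h covered much of the block in Pepd and the body of Cebpg. In A they ran from -94.9 to -88.1, -87.1 to -66.7 and -65.5 to -63.7 kb and in B from -84.1 to -79.3, -78.3 to -71.1 and -70.3 to -63.5 kb, so that they ended inside the gene, short of its promoter. The longest, of 20.4 kb in A, reached from Pepd into Cebpg. At 6 h, in Pepd, the islands ran from -85.7 to -72.3 kb in A and from -84.7 to -81.3, -79.7 to -75.5 and -74.7 to -69.3 kb in B. The 6 h lists also held sequence at the Cebpg promoter. In A an island of 9.6 kb (-69.7 to -60.1 kb) spanned the start site. In B the start site fell in the gap between 2 islands of 2.2 kb each, from -65.1 to -62.9 and from -62.1 to -59.9 kb. The share of promoters with SETD5-V5 in all 4 lists was 3.05%, and neither Cebpa nor Cebpg was among them. The Cebpg body itself had 8.0 and 8.6 kb at 0 h and 7.5 and 5.8 kb at 6 h, a difference of -1.65 kb ± 0.901 (SE, n = 2, exact permutation p = 0.333).

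On the Cebpa side the one stretch in both 6 h lists was chr7:35910801-35913400, from 6.5 to 9.1 kb, which holds the +8 kb site and the C/EBP match printed above. Its islands were of middle rank, outscored by 47.9% of islands in A and 66.6% in B. Replicate A alone also had an island of 1.0 kb at the Cebpa promoter, where 38.9% of all promoters had one in that list, and one of 3.8 kb from 0.7 to 4.5 kb. The presence of SETD5-V5 at the Cebpa promoter therefore rests on 1 library. The +19, +35 and +53 kb sites had no SETD5-V5 island in any of the 4 lists.

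In steps of 200 bp, 18.2 kb of the window was in both 6 h lists, of which 5.8 kb (31.9%) was in neither 0 h list, against 54.7% over the genome. All 2.6 kb beyond Cebpa and all 2.0 kb between the genes were such new sequence. Nothing present in both 0 h lists was missing from both 6 h lists, against 7.22% over the genome. Within single replicates, however, 10.8 of 29.4 kb (36.7%) listed at 0 h was missing at 6 h in A, against 25.2% over the genome, and 6.6 of 19.2 kb (34.4%) in B, against 27.7%, so this comparison with the genome turned with the rule. Of the H3K27ac sequence that was gained and absent with SETD5, 0.2 of 26.8 kb (0.746%) lay in both 6 h lists of SETD5-V5, against 20.3% over the genome. Within replicate A it was 3.8 of 42.0 kb (9.05%), against 40.2%, and within B 1.0 of 39.2 kb (2.55%), against 29.6%. Of that gained and kept it was 1.8 of 13.8 kb (13.0%) in both replicates, against 47.2%. The share of absent sequence that was listed for SETD5-V5 at 6 h thus varied with the rule and was below that of the genome under each of the 3. SETD5-V5 was not profiled at 48 h in the lists used here.

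H3K4me1 had 1 library per time, so its differences have no replicate check. The mark covered 49.0 kb of the window at 0 h (15 islands) and 72.0 kb at 48 h (18 islands), a ratio of 1.47. It was listed neither at the Cebpa promoter nor on the gene body at either time, and beyond Cebpa it covered 23.8 kb at 0 h and 35.2 kb at 48 h. Before differentiation its islands already lay at 2.9 to 5.1, 6.5 to 10.1, 18.3 to 23.7, 24.9 to 28.5, 30.5 to 32.9, 43.7 to 46.5, 49.5 to 51.3 and 51.9 to 53.9 kb. At 48 h they lay at 2.9 to 6.1, 6.9 to 11.9, 13.7 to 16.9, 19.5 to 23.3, 24.3 to 27.7, 35.9 to 38.7, 43.5 to 46.3 and 46.9 to 57.9 kb. The last, of 11 kb, took in the 2 last islands of 0 h, and that from 35.9 to 38.7 kb, with the +35 kb site, had no counterpart at 0 h. The island from 13.7 to 16.9 kb lay inside the 9.0 kb run of H3K27ac that was gained and absent with SETD5. The +19 kb site had H3K4me1 at 0 h and fell just outside an island at 48 h. On the Pepd side the mark covered 20.2 kb and 27.8 kb, in the Cebpg body 1.8 kb and 2.6 kb, and between the genes 3.2 kb and 6.4 kb (0 h and 48 h).

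The H3K27ac sequence gained at 48 h had H3K4me1 at 0 h over 7.6 of 46.6 kb (16.3%), against 27.4% over the genome. Beyond Cebpa it was 5.0 of 22.6 kb (22.1%) and between the genes 0.8 of 14.0 kb (5.71%). The stretch of the Cebpa side shared by both SETD5-V5 lists at 6 h lay wholly within H3K4me1 of 0 h (2.6 of 2.6 kb), and over the window the share was 63.7%, against 42.0% over the genome. Between the genes the 2.0 kb shared by SETD5-V5 had no H3K4me1 at 0 h. An island of 1.8 kb from -62.1 to -60.3 kb, before the Cebpg start site, was listed for H3K4me1 at 48 h.

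Endogenous SETD5 had no island in the window at 0 h or at 6 h. These lists were the shortest of the series, and 16.1% and 23.4% of the 6641 tiles had an island in them. No difference between the times was detectable.

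A small stretch inside Pepd recurred across antibodies. An island that began at -161.3 kb, 0.4 to 1.2 kb long, was listed for SETD5-V5 in all 4 libraries, for H3K4me1 in both and for H3K27ac in 3 empty-vector libraries, and for SETD5 H3K27ac in none. It lies in an intron of Pepd at chr7:35743001-35743400, and it is included in all lengths given for the Pepd side.

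Finally, genes outside the window were ranked by how closely H3K27ac within 50 kb of their start sites followed that of each member over the 8 libraries, as the mean absolute difference in covered length. Nearest to Cebpa were Enpp2, which encodes the secreted lysophospholipase autotaxin (4.42 kb), Tomm20, of the mitochondrial import machinery (4.5 kb), the neighbours Apol6 and Mb (4.65 kb each, with the same values) and Rarres1 (4.95 kb). In Enpp2 the values were 16 and 14.2 kb at 0 h and 49.2 and 40.4 kb at 48 h with empty vector, and 17.0 and 18.2 kb at 48 h with SETD5. Cebpa had 17.2 and 18.6, 52.6 and 46.4, and 15.2 and 11.6 kb in the same order. Nearest to Cebpg were Scd2, which encodes a stearoyl-CoA desaturase (2.45 kb), Col18a1 (2.73 kb), Drap1 (2.82 kb) and AI837181 (2.92 kb). Scd2 had 29.0 and 27.4 kb at 0 h, 53.4 and 46.8 kb at 48 h and 42.0 and 45.6 kb at 48 h with SETD5, where Cebpg had 27.4 and 24.2, 52.6 and 56.4, and 41.0 and 44.0 kb. At 48 h the genes near Cebpa thus had lower values with SETD5 than with the empty vector, as Cebpa had. All of them lay above Cebpa with SETD5, up to 23.6 and 29.0 kb at Rarres1. Those near Cebpg had higher values with SETD5, as Cebpg had. Likeness of this kind is what the measure itself requires.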

How the data were processed

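The authors aligned the first 36 bp of each read (ELAND or Bowtie2, mm9 build) and ran the island caller (SICER or SICER2) on every library by itself. Its windows measured 200 bp, the E-value was 100, and the permitted gap was 400 bp for H3K27ac and H3K4me1 but 600 bp where SETD5 was precipitated. Whether an input library entered the calling is not given in the sources used here. The deposited lists give position and, in column 4, the authors' score, which has no common scale and was used only for ranks within a list. All starts are multiples of 200 bp. Positions were made 1-based.

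Covered length was summed over islands clipped to the window, overlap meaning at least 1 bp. Groups of 2 libraries were compared with the two-sided exact permutation test. For tiles, promoters and steps, the same quantities were taken over the genome. Genes came from GENCODE vM1 on NCBIM37 (mm9), with Cebpd added to the protein-coding genes. Named genes were the members, other genes of the window, the C/EBP family with Pparg, the assayed sites and the 5 genes most alike to each member, except items that are not reported here. Members, lists and tests were chosen with earlier results of these data known. The alternatives were other flanks, score filters, equal island numbers, merging within 1000 bp, shares, island numbers, each library left out and a replicate block. The study calls A and B biological replicates. The scripts were tested on simulated islands. Python 3.11.15, numpy 2.4.6, pandas 2.3.3 and matplotlib 3.10.9 were used.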

Additional observations from a re-analysis of the deposited data

How the results depend on the processing

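The H3K27ac differences of empty-vector cells between 48 h and 0 h and between vectors at 48 h kept their direction under all alternatives listed under the processing. With each library left out in turn they ranged from 59.7 to 62.1 kb and from -50.1 to -47.9 kb, SETD5 cells between 48 h and 0 h from 9.9 to 16.1 kb, the vectors at 0 h from -4.2 to 2.0 kb and SETD5-V5 from -3.1 to 7.9 kb. Counted as islands, SETD5 cells had -0.5 islands at 48 h relative to 0 h, and the vectors at 0 h differed by 1.0. Without SETD5 replicate A or empty-vector replicate A, the 0 h difference was 2.0 or 0.1 kb. The SETD5-V5 difference was reversed above the median score (-7.7 kb), with equal numbers of islands (-11.7 kb), as a share of listed sequence (-0.029 percentage points), without 6 h replicate A (-3.1 kb) and without 0 h replicate B (-2.7 kb). With the replicate block, differences within letters gave the same means (60.9, -49.0, 13.0, -1.1 and 2.4 kb), with exact sign-flip p = 0.5 for 4 of them, the smallest that 2 pairs allow, and 1.0 for the vectors at 0 h. That the letters pair cultures rests on the labels alone.

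The H3K4me1 difference, with 1 library per time, was 19.2 and 24.6 kb with flanks of 50 and 200 kb, 21.6 kb above the median score, 25.0 kb merged, 0.0145 percentage points as a share and 3.0 in islands. Of the gained sequence, 69.1% (letter A alone) and 64.3% (letter B alone) was absent with SETD5, against 57.5% with both. Over the genome these shares were 55.7% and 40.7%. Endogenous SETD5 stayed at 0 throughout.

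Island lists hold no read counts, so depth at the locus is unknown, differences of signal within islands cannot be seen, and a break between islands can change an island's length while the covered length hardly differs.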
